A study of Drosophila melanogaster with 4 samples.

Results

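LSD1 sites of the X chromosome narrower than 10 kb numbered 732 in head chromatin of adult Oregon-R flies, out of 11016 enriched regions in all. A site was a region of the combined list that lay on X, was under 10 kb wide, and shared at least 1 bp with an enriched region in each of the replicate lists. These criteria kept 34.7% of the 2109 X regions under 10 kb. The same rule on the autosome arms 2L, 2R, 3L and 3R gave 3137 sites, or 40.1% of 7826 regions. The sites were chosen by measured values, namely their width and their overlap with both replicates, and the scores come from the same calls. The values that follow are therefore descriptions without a test between chromosomes, since with 2 replicates the smallest two-sided exact p from flipping signs is 0.5.

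The series held 2 LSD1 ChIP libraries and 2 input libraries, all from wild-type flies of the strain Oregon-R, labelled as mixed adults, with heads separated by sieving. All flies shared this genotype, and none was treated. The labels used here state no sex, and they leave unsaid if the replicates were collected apart, so that differences between replicates may be technical. Lists of regions carry no marker levels, so the labelled tissue could not be checked against markers. No source used here gives the number of reads per library.

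LSD1 is a histone demethylase that takes methyl groups off the tail of histone H3, and in flies it is encoded by Su(var)3-3, a suppressor of position-effect variegation. It works in complexes with CoREST and histone deacetylases and is known for limiting the activity of developmental genes and for a role at the borders between active and silent chromatin. The fly X differs from the autosomes in dose, since males carry a single copy and females a pair. In males, a dosage compensation complex binds along the X and acetylates its nucleosomes, and transcription of X-linked genes is raised.

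The number of sites per Mb on X lay within the range of the autosome arms. X had 32.6 sites per Mb over 22.4 Mb, and the autosomes had 32.5 sites per Mb, from 30.8 on 3L to 36.3 on 2R. The ratio of X to autosomes was 1.01. Sites covered 14.0% of X and 13.2% of the autosomes, with 12.7% to 14.5% on single arms. Regions of 10 kb or more were sparser on X, at 6.29 per Mb against 8.05 per Mb on the autosomes (7.99 to 8.21 on single arms). Before overlap was asked for, X held 2109 combined regions under 10 kb over 22.4 Mb and the autosomes 7826 over 96.6 Mb. The near equality of site density depended on asking for both replicates, which kept 34.7% of them on X and 40.1% on the autosomes. The ratio was 0.841 when overlap with replicate 1 was not asked for, and 1.33 when overlap with replicate 2 was not. Such settings drop only that demand and keep the regions and scores of the combined list.

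That dependence came from regions which a single replicate listed. Of the X regions under 10 kb, 28.0% were overlapped by replicate 1 alone and 11.9% by replicate 2 alone, whereas on the autosomes the shares were 14.5% and 24.2%. Regions overlapped by neither replicate made up 25.5% on X and 21.2% on the autosomes. Regions outside the rule were narrow on X and on the autosomes alike. On X their median widths were 1852 bp with replicate 1 alone, 1729 bp with replicate 2 alone and 1243 bp with neither, against 3760 bp for the sites. On the autosomes they were 1719, 1663 and 1211 bp, against 3475 bp. The surplus for replicate 1 on X was present in each class of width. Among regions of 3 to 4 kb, replicate 1 alone overlapped 27.6% on X and 8.09% on the autosomes, and replicate 2 alone overlapped 8.57% on X and 16.0% on the autosomes.

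Along X, sites were spread over the whole arm with a drop at the centromere end. The 22 full bins of 1 Mb held between 18 and 55 sites, with a median of 33.5, and 12 of them held 30 to 40. Autosome bins held between 7 and 51 sites, with a median of 33. The variance of the bin counts divided by their mean was 2.18 on X and 2.23 on the autosomes (1.78 to 3.04 on single arms). On X this quantity was 2.80 without asking for replicate 1 and 3.75 without asking for replicate 2. These sets held more X sites, 982 and 1322, and the quantity grows with the mean count at equal relative unevenness. Autosomal values under these settings were not computed.

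When X was divided into 10 equal parts from the telomere to the centromere, the parts held 74, 58, 89, 75, 83, 78, 62, 82, 83 and 48 sites. The part beside the centromere was thus the poorest, at 21.4 sites per Mb, and 8.39% of it was covered. It also held 4 regions of 10 kb or more, where the other parts held 11 to 19. The part next to the centromere was likewise the poorest on 2L (51 sites, 22.2 per Mb), 2R (44 sites, 20.8 per Mb) and 3L (45 sites, 18.3 per Mb). On 3R it held 79 sites, or 28.3 per Mb, and other parts of that arm were poorer, with 66 and 74.

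**Figure D1:**
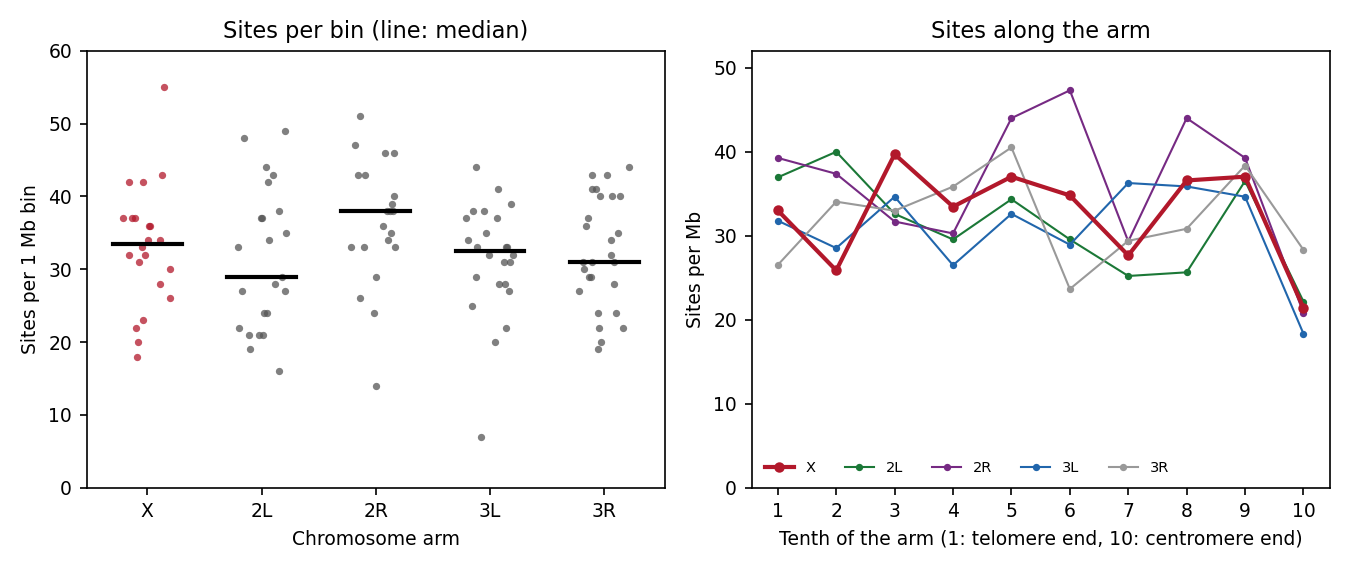
Left, number of sites in each full 1 Mb bin (points) of X and the 4 autosome arms, with the median of each arm as a line; right, sites per Mb in 10 equal parts of each arm from the telomere to the centromere end. X bins held 18 to 55 sites, and the part at the centromere end was the poorest on X, 2L, 2R and 3L.

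The fullest bin of X was X:6000001-7000000, with 55 sites that covered 22.1% of it, and its neighbour X:7000001-8000000 held 23. The emptiest was X:14000001-15000000, with 18 sites, next to X:13000001-14000000 with 43, so rich and poor stretches adjoined each other. Among fixed windows of 100 kb, X had 24 of 224 without any site (10.7%) and 13 with 8 or more (5.80%), and the autosomes had 85 of 965 without any (8.81%) and 34 with 8 or more (3.52%, and 3.04% to 4.27% on single arms). At this scale the variance divided by the mean was 1.68 on X and 1.41 on the autosomes, from 1.19 to 1.54 on single arms, so that X lay above each arm in 100 kb windows and within their range in 1 Mb bins. The windows of X with the most sites were X:6500001-6600000, X:6800001-6900000 and X:7800001-7900000, each with 10. None of these 3 windows contained the middle of a region of 10 kb or more, and their sites covered 38.1, 42.1 and 41.1 kb. Their median scores were 0.76, 0.62 and 0.71, on either side of the median of all X sites given further on.

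Close neighbours and long gaps between sites occurred on X and on the autosomes. The median gap from the end of a site to the start of the next was 11.2 kb on X and 12.4 kb on the autosomes (11.6 to 12.7 kb on single arms). The middle 50% of gaps ran from 3.41 to 31.7 kb on X and from 3.10 to 36.1 kb on the autosomes. Gaps under 5 kb made up 32.0% of 731 gaps on X and 32.7% of 3133 on the autosomes. Gaps over 50 kb made up 15.3% on X and 16.7% on the autosomes, and together they took up 51.1% of the length of X and 50.6% of that of the autosomes. The ratio of the median gaps, X to autosomes, was 0.905. It was 1.29 without asking for replicate 1 and 0.628 without asking for replicate 2, so no direction held.

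Joining sites less than 5 kb apart gave 498 groups on X. Of the 732 sites, 348 stood alone in this sense (47.5%), and on the autosomes 1466 of 3137 did (46.7%). Groups of 3 or more numbered 53 on X and held 26.0% of its sites, against 27.6% of sites on the autosomes. The longest groups on X had 7 sites each, at X:5309032-5355658 and X:13194822-13233136. The first spanned 46.6 kb with scores between 0.37 and 0.95, and the second 38.3 kb with scores between 0.52 and 0.97. Isolated sites, more than 20 kb from any other site, numbered 102 on X (13.9%) and 510 on the autosomes (16.3%). Their median width on X was 3572 bp and their median score 0.73, and sites within 5 kb of another had 4009 bp and 0.71, so the scores of both kinds were close.

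The longest gaps between X sites were 354.6, 311.7 and 302.2 kb. The first lay near the centromere, between X:21487858-21490180 and X:21844794-21847520, and held only 2 other combined regions, which covered 0.939% of it. The second lay between X:7186536-7191280 and X:7502980-7511032 and held 12 other regions, of which 1 was at least 10 kb wide. The third, between X:13907894-13909914 and X:14212150-14221330, also held 12, again with 1 of at least 10 kb. A long gap between sites was therefore not the same as a stretch without calls. Over the 112 X gaps longer than 50 kb, 3 held no combined region at all and 50 held a region of at least 10 kb, and of the 523 on the autosomes, 33 held none and 270 held such a region.

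Sites lay near other enriched regions of any kind. The median distance to the nearest combined region was 0.712 kb on X and 0.873 kb on the autosomes, and 89.3% of X sites and 85.3% of autosomal sites had one within 5 kb. The median distance to the nearest region of 10 kb or more was 40.0 kb on X and 32.4 kb on the autosomes (29.5 to 37.2 kb on single arms). On X, 109 sites lay within 5 kb of such a region. Those sites had a median width of 4367 bp, and the 315 sites more than 50 kb away had 3215 bp, while their median scores were 0.73 and 0.71. On the autosomes the corresponding widths were 4117 and 3230 bp, with scores of 0.55 and 0.54.

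Widths differed little between X and the autosomes. The median was 3760 bp on X and 3475 bp on the autosomes (3400 to 3575 bp on single arms). The middle 50% ran from 2427 to 5757 bp on X and from 2259 to 5355 bp on the autosomes. Sites under 2 kb made up 9.70% on X and 13.3% on the autosomes, and sites over 5 kb made up 32.1% on X and 29.2% on the autosomes. The difference between the medians, X minus autosomes, was 285 bp. It was 545 bp without asking for replicate 1 and -198 bp without asking for replicate 2. The SD between values from the replicate lists was 451 bp (n = 2), so the difference lay within that spread.

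**Figure D2:**
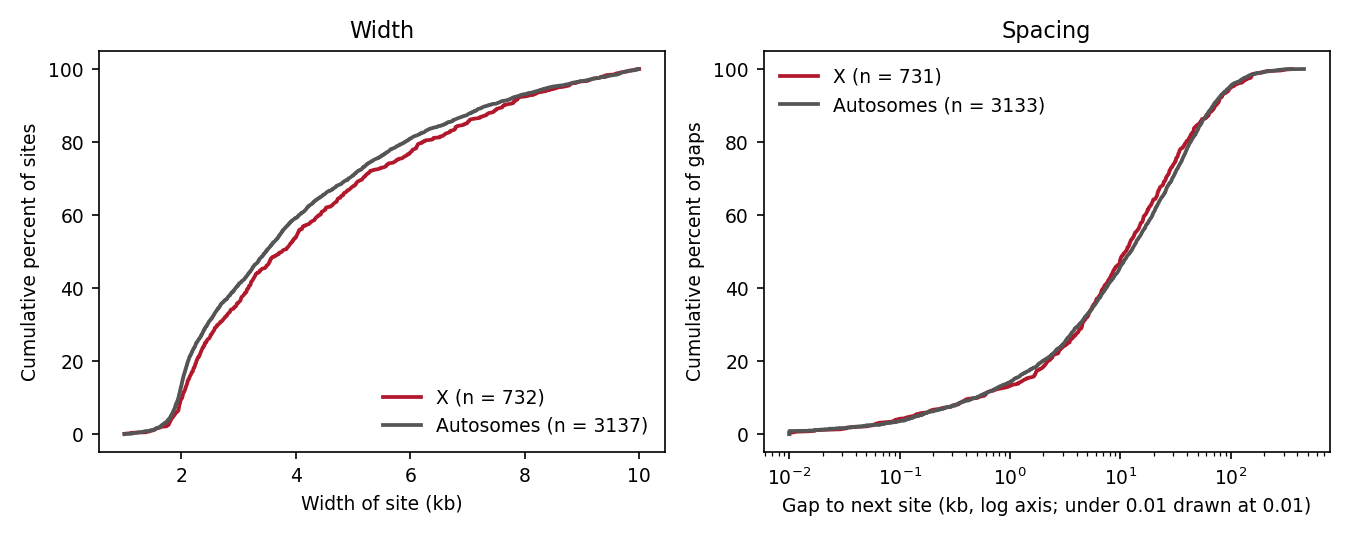
Cumulative percent of sites by width in kb (left) and of gaps between neighbouring sites in kb on a log axis (right), for X and for the 4 autosome arms together. The curves lie close together, with medians of 3760 bp on X and 3475 bp on the autosomes for width, and of 11.2 kb on X and 12.4 kb on the autosomes for gaps.

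At the upper limit of width, the 3 widest sites were X:385726-395724 (9999 bp, score 1.55), X:13707464-13717390 (9927 bp, 1.05) and X:13787494-13797418 (9925 bp, 0.71). Just outside it were X:6409400-6419432 (10033 bp, 0.74), X:14978240-14988436 (10197 bp, 0.99) and X:16313462-16323892 (10431 bp, 0.83). Scores on both sides of the limit overlapped. The 3 narrowest sites were X:6854506-6855508 (1003 bp), X:6819094-6820192 (1099 bp) and X:6855568-6856688 (1121 bp). The first and the third lay 59 bp apart, and a single region of 1554 bp in replicate 2 and a single one of 1332 bp in replicate 1 reached into both. These were thus a pair of combined calls on the same replicate regions. On X, 46 sites (6.28%) shared a replicate 1 region with another site, and 31 (4.23%) shared a replicate 2 region. On the autosomes the shares were 5.00% for replicate 1 and 6.47% for replicate 2.

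Scores were higher at X sites than at autosomal sites. The score is the authors' value for a region, read here as log2 enrichment of ChIP over input up to a constant of each list, which cancels in differences within a list. The median of X sites was 0.72 in the combined list, and that of autosomal sites was 0.55 (0.54 to 0.57 on single arms). In replicate 1 the medians were 0.89 on X and 0.64 on the autosomes, and in replicate 2 they were 0.94 on X and 0.82 on the autosomes. X was higher by 0.17 in the combined list (1.13-fold), by 0.25 in replicate 1 (1.19-fold) and by 0.12 in replicate 2 (1.08-fold). The replicates together gave 0.18 ± 0.093 (SD, n = 2), with X higher in both. In the combined list the difference was 0.18 without asking for overlap with replicate 1 and 0.12 without asking for replicate 2. Both values used combined scores, so neither is a check with a replicate left out.

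Most of the X distribution was shifted by a similar amount. At the lowest 10% the combined score was 0.54 on X and 0.38 on the autosomes, a difference of 0.15, and at the 90th percentile it was 1.02 on X and 0.86 on the autosomes, a difference of 0.16. The highest of the 732 X sites had 1.58 and the highest of the 3137 autosomal sites 1.91. X supplied 1 of the 10 highest sites, a small number to judge by, and 15 of the 50 highest (30%). X sites were 18.9% of all sites on these arms, 30% of the 100 with the highest combined score and 35.4% of the highest 500. By replicate scores they were 43.4% of the highest 500 in replicate 1 and 34.4% in replicate 2.

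The higher scores were found along the whole of X. Each of the 22 bins of 1 Mb had a median score above the median of autosomal sites, in the combined list and in each replicate. Combined bin medians on X ran from 0.66 to 0.79, and 92 of 95 autosome bins lay below the lowest of them. In replicate 1 the X bins ran from 0.80 to 0.96, again with 92 of 95 autosome bins below them. In replicate 2 they ran from 0.86 to 1.09, and 73 of 95 autosome bins were below. The 3 autosome bins above the lowest X bin in the combined list were the full bins nearest the centromere on 2L, 2R and 3L, at 2L:22000001-23000000 (0.68), 2R:1-1000000 (1.14) and 3L:23000001-24000000 (0.75). They held 16, 14 and 7 sites.

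**Figure D3:**
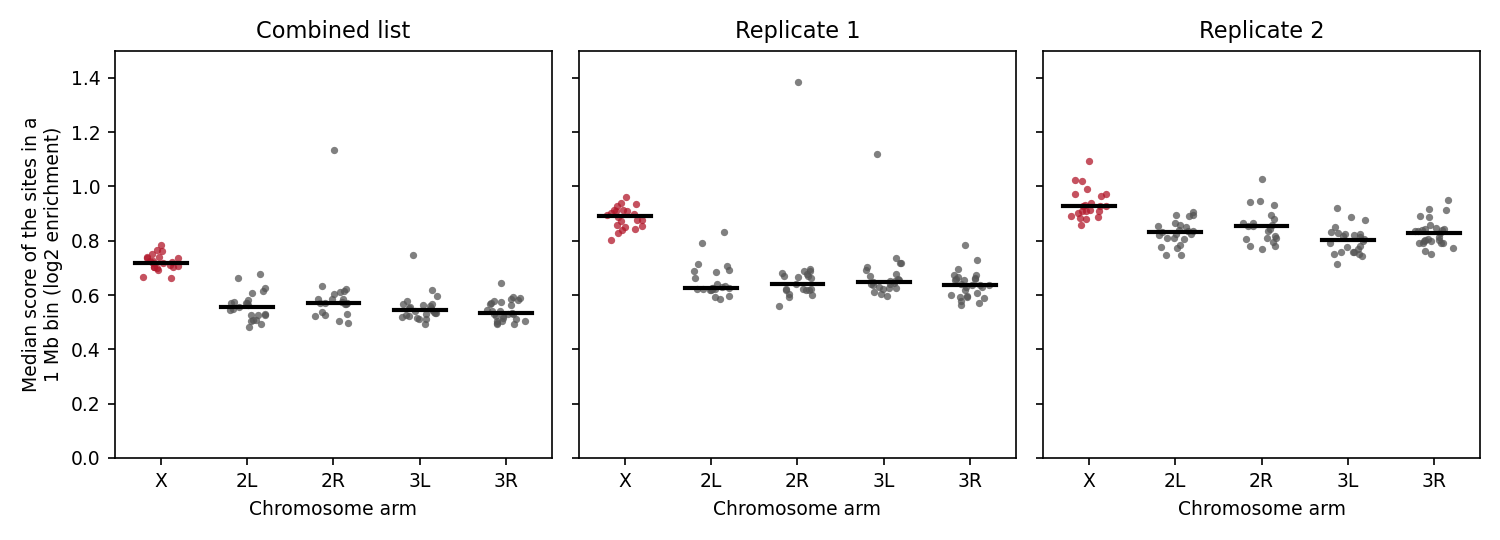
Median score (log2 enrichment) of the sites in each 1 Mb bin, for X and the 4 autosome arms for the combined list (left) and each replicate; lines mark the median of the bins of an arm. All 22 X bins lie above the median of autosomal sites in each list, with the widest separation in replicate 1.

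X sites scored higher than autosomal sites in the same class of combined width, in all 5 classes and in each list. The replicate regions that gave the replicate scores were not matched in width. Their median at X and autosomal sites was 2762 and 2253 bp in replicate 1, and 2133 and 2385 bp in replicate 2. For sites of 1 to 2 kb, the combined medians were 0.51 on X (71 sites) and 0.37 on the autosomes (418 sites). For sites of 6 to 10 kb they were 0.79 on X (167 sites) and 0.66 on the autosomes (596 sites). Over the 5 classes the combined differences were 0.14 to 0.17. Those of replicate 1 were 0.18 to 0.24, and those of replicate 2 were 0.083 to 0.19. Within X, wider sites scored higher, with a Spearman coefficient of 0.432 over 732 sites, against 0.506 over 3137 autosomal sites. These coefficients describe sites of the same libraries and carry no p.

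**Figure D4:**
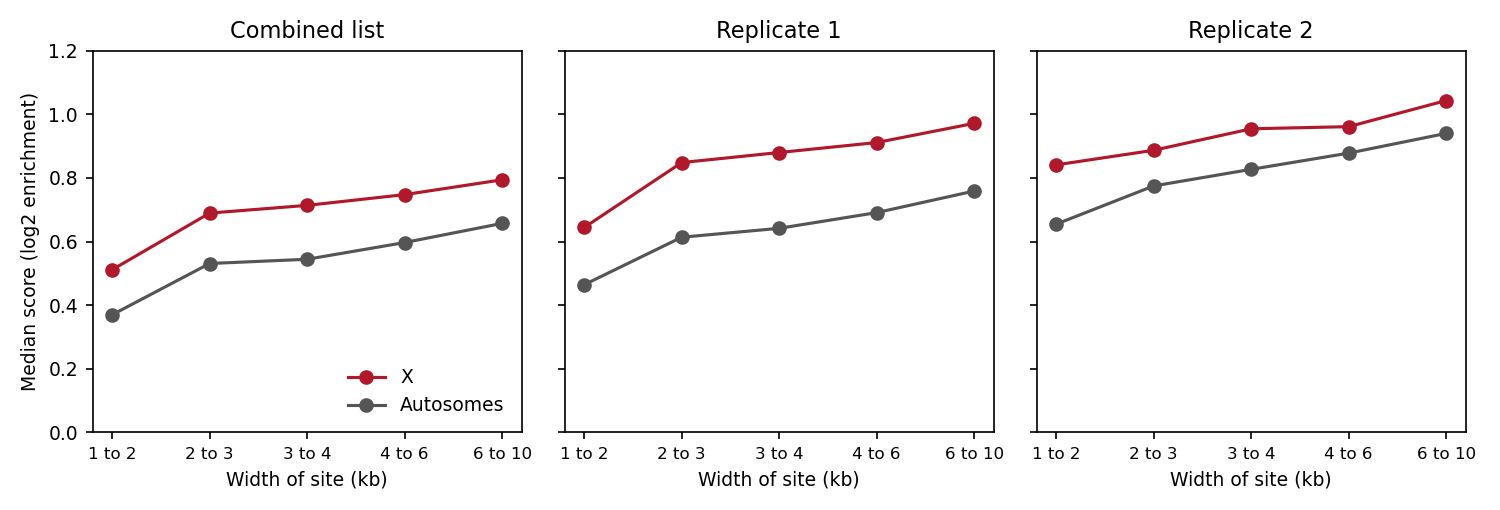
Median score (log2 enrichment) of X and autosomal sites in 5 classes of width, for the combined list (left) and each replicate. The X line is above the autosomal line in each class and list, by 0.14 to 0.17 in the combined list.

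Higher scores on X were not particular to the sites of the rule. Among regions under 10 kb overlapped by neither replicate, the combined medians were 0.57 on X and 0.44 on the autosomes. With replicate 1 alone they were 0.56 on X and 0.43 on the autosomes, and with replicate 2 alone 0.53 on X and 0.41 on the autosomes. Regions of 10 kb or more had 0.99 on X (141 regions) and 0.83 on the autosomes (778 regions). The lowest score listed in replicate 1 was 0.30 on X (1655 regions) and 0.022 on the autosomes (6303 regions). In replicate 2 it was 0.29 on X (1605 regions) and 0.16 on the autosomes (8193 regions). Lowest values depend on the number of regions. At the lowest 1% the scores were 0.46 on X and 0.26 on the autosomes in replicate 1, and 0.48 and 0.39 in replicate 2.

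The numbers behind the scores also differed between X and autosomes. Once a constant of the list was taken out, nearly all scores could be read as a ratio of whole numbers. This reading rests on the values, and no source used here says what those numbers count. In lowest terms and per kb, at the 80th percentile over the replicate regions under the sites that gave such a ratio, the denominator on X was 0.558 times the autosomal one in replicate 1 and 0.664 times in replicate 2. The numerator was 0.635 times in replicate 1 and 0.711 times in replicate 2. Both terms were thus smaller on X, the denominator by more. Their part in the higher scores was not tested.

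The replicates described the X sites differently in extent. All regions of replicate 1 under an X site together covered a median of 85.2% of it, and those of replicate 2 covered 71.9%. On the autosomes the medians were 81.5% and 82.0%. Over their summed length, X sites were covered to 79.3% by replicate 1 and to 67.0% by replicate 2, and autosomal sites to 74.8% and 77.0%. Sites covered in full made up 7.79% on X in replicate 1 (57 sites) and 1.91% in replicate 2 (14 sites). On the autosomes they made up 4.08% (128 sites) and 6.12% (192 sites). The region with the longest overlap was wider in replicate 1 at 66.7% of X sites and at 48.6% of autosomal sites (45.8% to 52.1% on single arms). Its median width at X sites was 2762 bp in replicate 1 and 2133 bp in replicate 2, and at autosomal sites 2253 and 2385 bp.

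**Figure D5:**
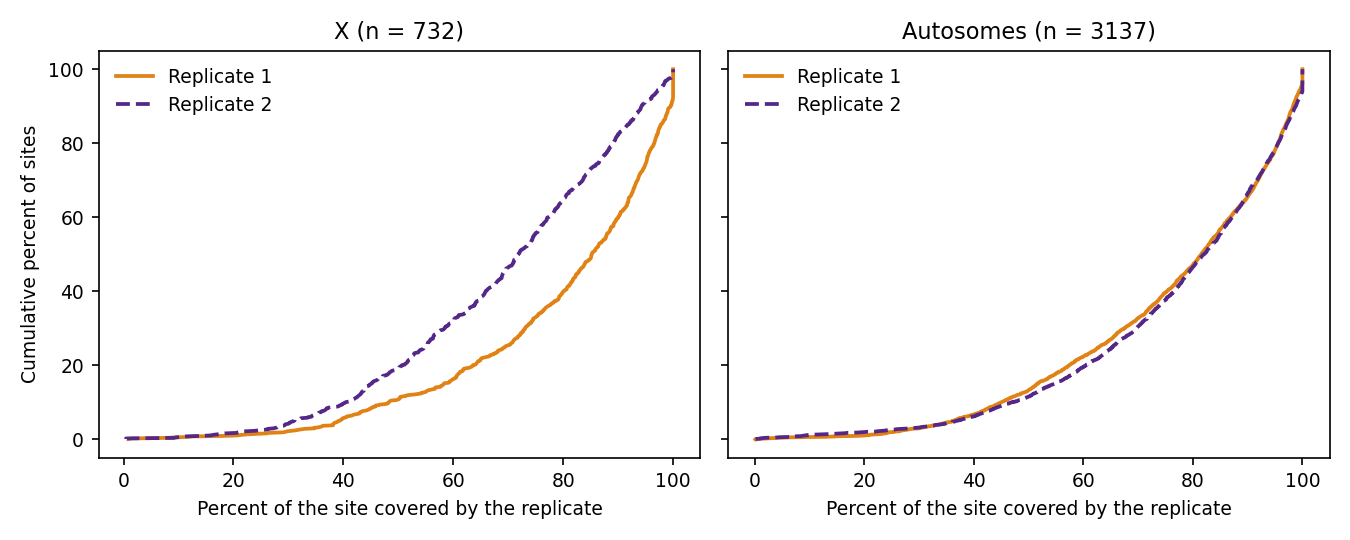
Cumulative percent of sites by the percent of their length covered by regions of replicate 1 (solid) and replicate 2 (dashed), for X (left) and the autosomes (right). The replicate curves are apart on X, with medians of 85.2% and 71.9%, and nearly coincide on the autosomes, with 81.5% and 82.0%.

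Most X sites met a single region in each replicate. This was so for 517 of 732 X sites (70.6%) and for 71.9% of autosomal sites. Several regions of replicate 1 lay under 117 X sites (16.0%) and several of replicate 2 under 154 (21.0%), with at most 4. On the autosomes the shares were 14.1% and 20.5%. Midpoints of the replicate regions were a median of 643 bp apart on X and 590 bp apart on the autosomes. Replicate 2 had the higher deposited score at 60.2% of X sites and at 75.8% of autosomal sites. Each list has its own unknown constant, so these shares, and any difference in score between replicates, depend on the offset between the lists and do not show which replicate had more LSD1. Replicate scores followed each other weakly over sites, with Spearman coefficients of 0.204 on X and 0.301 on the autosomes, which carry no p.

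The 10 X sites with the highest combined scores were between 2.20 and 9.999 kb wide, 6 of them under 4 kb, and included the widest X site. Each met a single region in both replicates, as did 70.6% of all X sites. At X:5625436-5633076 (7.64 kb) the combined score was 1.58, and the replicates had 1.75 and 1.35. At X:16224910-16230390 (5.48 kb) it was 1.57, with 1.64 and 1.50 in the replicates. The widest site, X:385726-395724, had 1.53 in replicate 1 and 1.66 in replicate 2.

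These were followed by sites near the telomere end of X. At X:1359160-1362732 (3.57 kb) the combined score was 1.54, with 1.66 in replicate 1 and 1.54 in replicate 2. X:1902726-1908712 (5.99 kb) scored 1.51, with 1.66 in replicate 1 and 1.45 in replicate 2, and X:2478536-2480942 (2.41 kb) scored 1.48, with 1.60 in replicate 1 and 1.31 in replicate 2. Over the 10 sites, 5 began in the first 25% of X, and the share of all X sites beginning there was not computed. For reference, the first 3 of 10 equal parts of X, which reach past that point, held 74, 58 and 89 of 732 sites. None of the 10 highest lay within 5 kb of a region of 10 kb or more, and 4 had another site within 5 kb. Of all X sites, 14.9% and 52.5% did, so these counts do not set the 10 sites apart.

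A further site was a neighbour of the second-ranked one. X:16211860-16215628 (3.77 kb) ended 9281 bp before it, with a combined score of 1.47 and replicate scores of 1.51 and 1.58. The remaining 3 were X:19413786-19417036 (1.45 combined, 1.51 and 1.66 in the replicates), X:20630496-20632694 (1.42 combined, 1.47 and 1.20) and X:5417532-5419774 (1.38 combined, 1.39 and 1.29). The site X:20630496-20632694 stood far from broad enrichment, 246867 bp from the nearest region of 10 kb or more.

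Some X sites had deposited scores far apart in the replicates, with the offset between the lists included. X:13036-15306, the first site of the arm, scored 1.66 in replicate 1 and 0.70 in replicate 2, with 1.23 in the combined list. X:21193640-21196218, in the part beside the centromere, scored 1.21 in replicate 1 and 0.39 in replicate 2. In the other direction, X:11657360-11660944 scored 0.55 in replicate 1 and 1.57 in replicate 2, and X:2312728-2314784 scored 0.57 in replicate 1 and 1.41 in replicate 2. Across all X sites the difference, replicate 2 minus replicate 1, had a median of 0.068 and ran from -0.32 at the lowest 10% to 0.39 at the 90th percentile, and on the autosomes it had a median of 0.17 and ran from -0.17 to 0.46.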

How the data were processed

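Enriched regions came from 3 deposited lists, 1 for each of 2 ChIP samples and 1 combined. Bowtie 0.12.7 is named per the submitters' processing notes. Per the file headers, coordinates follow release 5 of the fly genome. No source used here names the region caller, its threshold or the making of the combined list. The deposited scores were read as log2 values: once a constant of the list was taken out, 2 to the power of the score equalled a quotient of integers in 8062 of 8115, 9911 of 9911 and 11006 of 11016 regions of replicate 1, replicate 2 and the combined list (relative tolerance 1e-12, denominators up to 6000), and in 0, 2 and 2 regions after a small random shift. Read depth is unknown, so no interval that needs it is given.

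Overlaps, gaps and counts were computed in Python 3.11.15 with numpy 2.4.6 and pandas 2.3.3, and checked on simulated data. Gaps run from the last base of a site to the first of the next, bins and windows take a site by its midpoint, and replicate scores are those of the region with the longest overlap. Sites were named by a rule: the 10 highest scores, the 3 widest and 3 narrowest, the 3 regions just above the limit, the flanks of the 3 longest gaps, the 3 fullest windows, and the 2 largest score differences in each direction. The arms' ends follow the standard orientation. Gene positions at hand follow release 6, so no site was assigned to a gene and no sequence is shown. The sites, lists and alternatives were chosen with earlier results of these data known.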

Additional observations from a re-analysis of the deposited data

How the results depend on the processing

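Of 55 alternatives over 6 results, 13 turned the direction, within or beyond the SD between the replicate lists. Density ratios of 0.942, 0.964 and 0.984, a width difference of -4 bp and a gap ratio of 1.02 turned within that SD. Of the rest, 27 stayed within the SD and 15 moved beyond it. That SD (n = 2) comes from 2 of the alternatives, so it is a weak yardstick, and the cause of changes was not tested unless stated. Settings without a replicate dropped only the demand for overlap with it. All settings but those of the replicate lists used regions and scores of the combined list, so they are not independent of the main result. The score difference, X minus autosomes, kept its sign in all 9, from 0.093 (replicate 2 list) to 0.23 (replicate 1 list). The density ratio, 1.01, turned to 0.942 with at least 50% of the region covered, 0.886 with reciprocal overlap, 0.964 and 0.984 with width limits of 5 and 20 kb, and 0.868 in the replicate 1 list. It moved to 1.51 in the upper 50% by score, which by construction favours the higher-scoring X, and ran from 0.841 to 1.33 without one or the other replicate. The width difference, 285 bp, turned to -4 bp with reciprocal overlap, -304 bp in the upper 50% by score and -351 bp in the replicate 2 list, and ran from -198 to 545 bp without either replicate. The gap ratio, 0.905, moved to 0.455 in the upper 50% by score, turned to 1.23 and 1.02 in the replicate 1 and replicate 2 lists, and ran from 0.628 to 1.29 without either replicate. Dispersion on X, 2.18, moved to 3.39 and 3.95 in the replicate 1 and replicate 2 lists. It ran from 2.80 to 3.75 without one or the other replicate, and all these sets held more X sites. The share of X sites met by several regions of a replicate, 29.4%, moved to 12.2% with reciprocal overlap, 11.7% and 37.8% with limits of 5 and 20 kb, and 20.9% and 10.9% in the replicate lists, and ran from 10.2% to 16.3% without either replicate, where a single replicate is counted by construction. No paired analysis was possible because the input samples have no region list of their own.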

Other observations

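The contig XHet, heterochromatic sequence placed near X and 204.1 kb long, had 5 combined regions, of which 2 met the same width and overlap criteria. These were XHet:56202-58290, with scores of 0.59 combined, 0.58 in replicate 1 and 0.68 in replicate 2, and XHet:60292-62286, with 0.48, 0.42 and 0.66. All 6 of these scores lay below the X medians of their lists. Some neighbouring X sites were nearly continuous: 31 of 731 gaps were under 100 bp, and 114 of 3133 gaps on the autosomes, and 1 pair on X shared its border base.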
